A study of Mus musculus with 4 samples.

Results

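Ppp1r21 and Mfhas1 were both several-fold higher in dexamethasone-treated thymocytes than in untreated ones. They were chosen for that difference on these same arrays, so their signals are given as a description, with no test. All probe sets that name either gene alone in the platform annotation were taken. This gave 1 probe set each for Ppp1r21 (gene ID 73825) and Mfhas1 (gene ID 52065), of 12488 on the array, and 2 of 8251 genes with a probe set naming 1 gene. No second probe set was available to check either signal.

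The cells were CD4+CD8+ double-positive thymocytes, the immature T cells that make up most of the thymus. They were taken from female C3H/HeN mice aged 4 weeks, isolated with microbeads and cultured at 5.0E+06 cells per ml in 3 ml wells for 3 h. One group received 1e-07 M dexamethasone, a synthetic glucocorticoid, in PBS, and the control group received medium with 0.1% PBS. Each group had 2 arrays, replicates 1 and 2, described in the series design as technical replicate extracts, so spreads and p-values measure the difference between extracts. In total RNA from a cell population, a change in the share of cells with a transcript and a change in the amount per cell cannot be told apart.

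Glucocorticoids bind the glucocorticoid receptor, which then acts in the nucleus as a transcription factor, and double-positive thymocytes are killed by them within hours. Ppp1r21 encodes a coiled-coil protein, named as a regulatory subunit of protein phosphatase 1. It is a component of the FERRY complex, an effector of the small GTPase Rab5 that links mRNAs to early endosomes. Mfhas1 encodes a protein of the ROCO family, in which leucine-rich repeats precede a Ras-like GTPase domain. Unlike its relatives of the Lrrk group, it has no kinase domain. The human gene was described as amplified in malignant fibrous histiocytoma, and its product has been studied in Toll-like receptor signalling, in Raf, MEK and ERK signalling of erythroid cells and as a partner of protein phosphatase 2A.

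The sequence before the annotated start of Ppp1r21 is shown because the receptor's DNA motif can be looked for in it. It covers the 250 bases upstream, chr17:88529874-88530123 on the plus strand of GRCm38.p6, from RefSeq, and capitals mark matches to the motifs searched on both strands.
Ppp1r21: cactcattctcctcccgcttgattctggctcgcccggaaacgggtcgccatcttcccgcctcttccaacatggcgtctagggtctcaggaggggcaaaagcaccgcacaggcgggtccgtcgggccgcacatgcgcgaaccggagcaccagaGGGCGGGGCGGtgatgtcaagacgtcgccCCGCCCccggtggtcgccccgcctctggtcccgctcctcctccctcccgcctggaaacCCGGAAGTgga
The window had a GC content of 68.4% and 26 CG dinucleotides, against medians of 52.4% and 6 over the 32851 promoter windows of that length. It held 0 matches to the receptor half-site AGAACA, which 16.1% of all windows held. The palindrome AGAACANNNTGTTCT, which contains that half-site on each side, also had 0 matches, and 0.00913% of all windows held it. The GC box GGGCGG matched 3 times, 2 of them overlapping, and 32.7% of windows held it. The ETS-factor motif CCGGAAGT matched once, with its first base 11 bases before the start, and 2.88% of windows held it. The cyclic AMP response element TGACGTCA had 0 matches, and 1.55% of windows held it. These are matches of letters in this window and say nothing about more distant sequence or about binding.

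The deposited values are MAS5 signals, in which each array had been brought to a common overall level. Median signals were 20.9 to 22.7 over the 4 arrays. Probe sets for bacterial and yeast transcripts reached at most 14, and this value is used as the background. Fkbp5, a known target of the receptor and its co-chaperone, was at 660.0 and 589.9 in medium and at 2381.8 and 2152.1 with dexamethasone. The defining coreceptor genes were bright on every array, with Cd4 between 422.7 and 508.2 and Cd8a between 2344.7 and 2584.9. The 9 hybridization control probe sets, added before hybridization, were 1.37-fold higher on the dexamethasone arrays. Actin control probe sets at the 3′ end read 1.06 and 1.15 times those at the 5′ end in medium, and 1.24 and 1.40 times on the dexamethasone arrays. For Gapdh the same ratio overlapped between the groups, at 0.838 and 0.845 in medium and 0.904 and 0.823 with dexamethasone. The part of these controls in the results below was not tested.

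The Ppp1r21 probe set gave signals of 510.6 and 486.8 in medium and of 2386.4 and 2214.1 with dexamethasone. The groups lay far apart, while the arrays within each group nearly coincided. The means were 499 ± 16.8 in medium and 2300.3 ± 122 with dexamethasone (SD, n = 2), a log2 difference of 2.20 on the log2(signal + 1) scale, or 4.60-fold. The smallest ratio between any dexamethasone and any medium array was 4.34 and the largest 4.90. Ppp1r21 was thus well above background before treatment, at 35.6 times its upper limit. Its pooled SD of log2 signals within groups was 0.06, and 25.2% of the 5582 genes tested had one as small or smaller.

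The Mfhas1 probe set was much dimmer in medium, with signals of 31.0 on replicate 1 and 51.5 on replicate 2. With dexamethasone it gave 178.3 and 175.2. The groups again did not overlap, but the medium arrays differed 1.66-fold, whereas the dexamethasone arrays differed 1.02-fold. The means were 41.3 ± 14.5 in medium and 177 ± 2.19 with dexamethasone (SD, n = 2), a log2 difference of 2.12, or 4.34-fold. Depending on the arrays paired, the ratio ranged from 3.40 to 5.75. The medium signals lay above the background of 14, on average 2.95 times as high. The pooled SD of log2 signals was 0.36, which 92.1% of tested genes did not exceed.

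**Figure D1:**
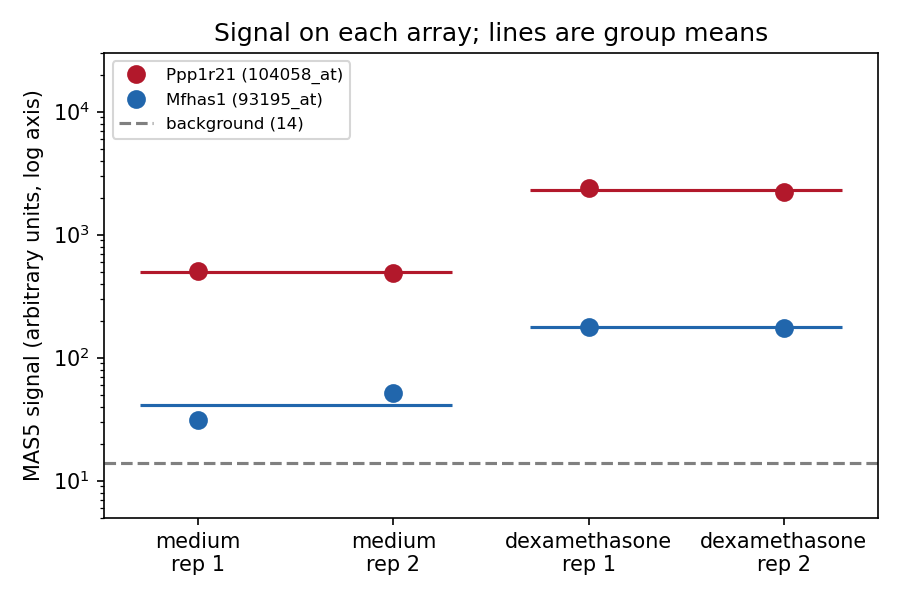
MAS5 signal (log axis) of the Ppp1r21 and Mfhas1 probe sets on each of the 4 arrays; points are arrays, solid lines are group means and the dashed line is the background of 14. Both dexamethasone arrays lie above both medium arrays for each gene, and only Mfhas1 shows a visible gap between the medium arrays, 31.0 against 51.5.

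On the log2 scale the differences of Ppp1r21 and Mfhas1 were 0.09 apart, less than the pooled SD of Mfhas1. The fold values of the pair can therefore not be ordered with these arrays. A difference between them was not tested, since both were selected on this contrast. The dexamethasone arrays differed by 0.11 for Ppp1r21 and by 0.03 for Mfhas1 on the log2 scale, and replicate 1 was the higher in both. In medium the order was opposite, with replicate 1 the higher for Ppp1r21 and replicate 2 for Mfhas1.

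Among the 5582 genes tested, the differences of Ppp1r21 and Mfhas1 ranked 6 and 7 from the top, and 0.125% of all genes were at least 4-fold higher. Both dexamethasone arrays lay above both medium arrays for 24.7% of genes. Since this contrast chose the pair, neither rank nor separation is support for their response. Of the 5 genes with larger differences, Usp18, Tnfsf11, Gpr65 and Notch4 had medium signals at or below 9.0, inside the background, and only Eipr1 started above it, at 80.3 and 86.6. Ppp1r21 and Mfhas1 thus followed Eipr1 among the genes whose medium signals both exceeded background.

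**Figure D2:**
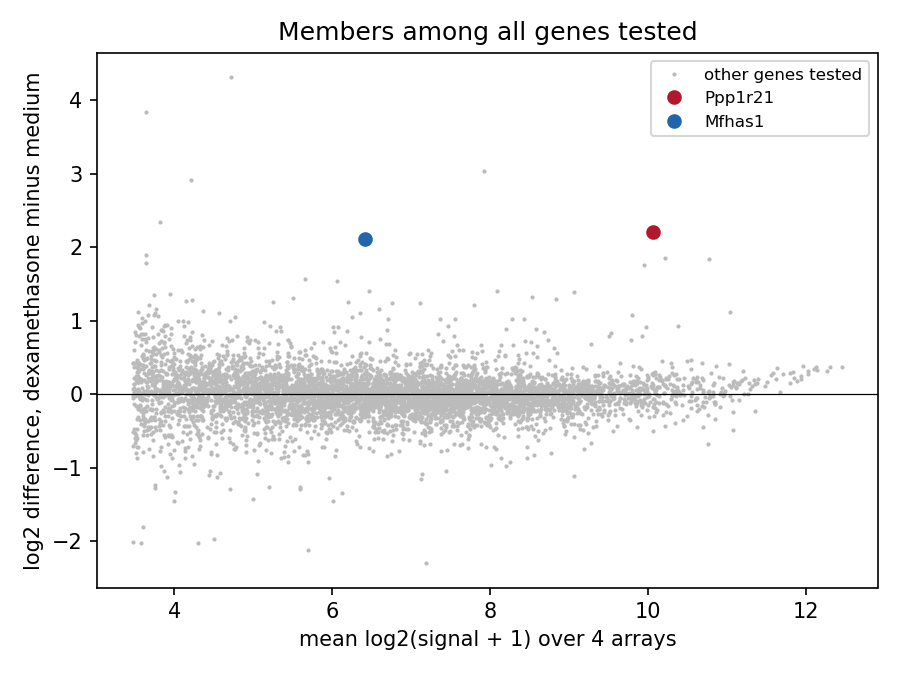
Log2 difference between dexamethasone and medium (vertical) against the mean log2(signal + 1) over the 4 arrays (horizontal) for the 5582 genes tested; grey points are genes, and coloured points are Ppp1r21 and Mfhas1. The coloured points lie at 2.20 and 2.12, with Ppp1r21 among the bright genes and Mfhas1 in the middle of the range.

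Genes of similar brightness in medium give the scale of these differences. Within 0.5 log2 units of Ppp1r21 in medium there were 599 other genes, with a median absolute log2 difference of 0.12. Of these, 3 were at least 2-fold higher and 0 at least 4-fold higher, and the differences ran from -0.98 for Dynlrb1 to 1.86 for Fkbp5. The 5 closest in level were Otud5, Polr2j, Septin9, Polr2m and Aimp1, with log2 differences of -0.07, -0.05, -0.82, 0.18 and 0.18. Within 0.5 log2 units of Mfhas1 there were 891 other genes, with a median absolute difference of 0.18. Of these, 6 were at least 2-fold higher and 0 at least 4-fold higher, and the differences ran from -2.02 for Smtn to 1.57 for Trgv1. The 5 closest were Ap3s2, Ap2a1, Prkar1b, Bex1 and Selenos, at -0.30, -0.04, -1.29, -0.08 and 0.32. The pair was chosen on this contrast, and only 7 of all 5582 genes, the pair among them, were at least 4-fold higher.

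The gap between the medium arrays of Mfhas1 was wide for its brightness. It was 0.71 on the log2 scale, against a median of 0.17 over those 891 genes, and 19 of them (2.13%) had a gap at least as wide. For Ppp1r21 the gap was 0.07, against a median of 0.06, and 47.9% of its 599 comparison genes had a gap at least as wide. Medium replicate 2 was the higher in 435 of the 891 genes, so the arrays did not differ in one direction at this brightness.

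Genes with a profile like that of Ppp1r21 or Mfhas1 were ranked by the Euclidean distance over the 4 arrays between log2(signal + 1) values, each less its medium mean. This measure uses the same contrast and is a description over 4 arrays. The nearest to Ppp1r21 were Fkbp5 (distance 0.49), Zfp36l2 (0.54), Mfhas1 (0.57), Ddit4 (0.65) and Trgv1 (0.91). Those nearest to Mfhas1 were Ppp1r21 (0.57), Zfp36l2 (0.58), Gpx3 (0.58), Ddit4 (0.68) and Fkbp5 (0.72). The lists shared 3 genes, 60% of each.

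Zfp36l2, which encodes a protein that promotes decay of AU-rich mRNAs, gave signals of 890.1 and 963.3 in medium and 3344.5 and 3277.1 with dexamethasone. Ddit4, an inhibitor of mTORC1, gave 517.9 and 555.4 in medium and 1861.5 and 1754.8 with dexamethasone. In both the groups were separate and the arrays of a group close, as in Ppp1r21. Trgv1, a variable segment of the T cell receptor gamma locus, was dim, at 26.0 and 30.4 in medium and at 87.6 and 83.7 with dexamethasone. Gpx3, a glutathione peroxidase, was at 3.0 and 9.5 in medium, inside the background, and at 24.0 and 22.0 with dexamethasone. It did not pass (1.89 ± 0.48 SE, limma adjusted p = 0.0929), whereas Fkbp5, Zfp36l2, Ddit4 and Trgv1 did. The medium arrays of Gpx3 differed in the same direction as those of Mfhas1.

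**Figure D3:**
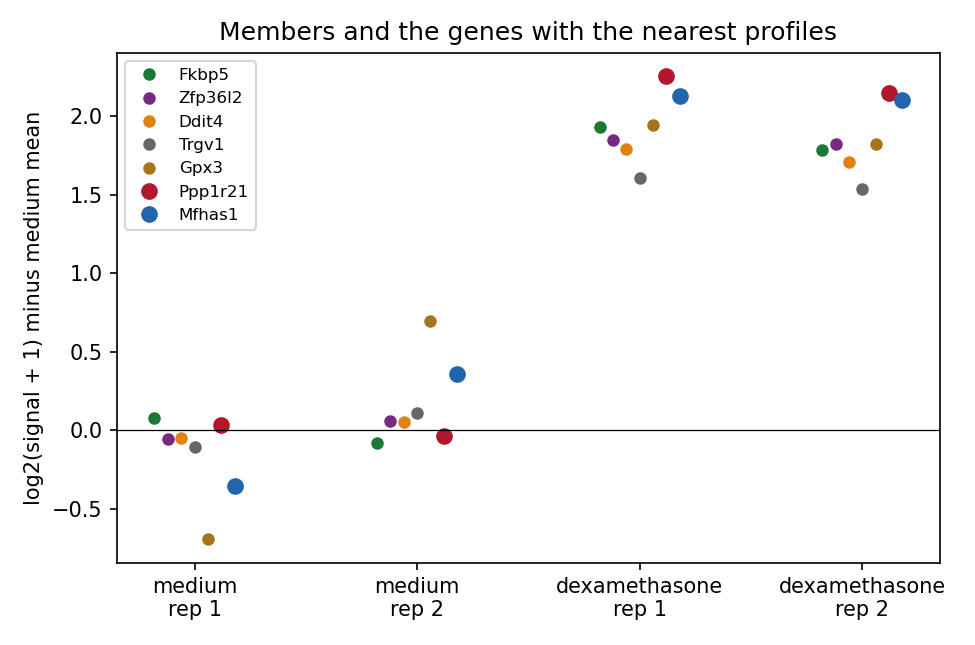
Log2(signal + 1) less the medium mean on each of the 4 arrays for Ppp1r21, Mfhas1 and the genes with the nearest profiles; points are arrays, shifted sideways for legibility. All 7 genes lie above 1.5 on both dexamethasone arrays, and Gpx3 and Mfhas1 have the widest gaps between the medium arrays.

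The nearest measured genes on either side of Ppp1r21 and Mfhas1 were examined next, in the order of the RefSeq table of GRCm38.p6. Most were not adjacent, and genes in between without a probe set naming 1 gene could not be read. Of the 6 nearest measured genes around Ppp1r21 on chromosome 17, 4 were tested and 0 passed in limma at an adjusted p of 0.05, with 1 at an unadjusted p under 0.05. Over all 5582 genes 3.91% passed, and 1111 had an unadjusted p under 0.05. Foxn2, a forkhead factor and the immediate neighbour, was dim, at 16.6 and 16.9 in medium and 24.4 and 17.2 with dexamethasone. Fshr, the follicle-stimulating hormone receptor gene on the other side, gave 43.5 and 36.9 in medium and 51.8 and 72.1 with dexamethasone, the largest log2 difference of the 4 (0.60 ± 0.20 SE). Msh6, a mismatch repair gene, differed by -0.07 and 2700099C18Rik by 0.13. Foxn2 had 0 protein-coding genes between it and Ppp1r21, Msh6 and Fshr had 3 each, and 2700099C18Rik had 7. Epcam and Adcyap1 had signals of at most 5.5 on every array and were not tested.

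Around Mfhas1 on chromosome 8, 3 of the 6 nearest measured genes were tested, and 0 passed, also at an unadjusted p under 0.05. Over all 5582 genes, 1111 had such a p. Saraf, which encodes a regulator of store-operated calcium entry, was bright and level, at 1007.8 and 958.4 in medium and 954.0 and 1016.7 with dexamethasone. Dctn6, a dynactin subunit, and Cnot7, a deadenylase of the CCR4-NOT complex, had log2 differences of -0.20 and -0.30. Saraf had 4 protein-coding genes between it and Mfhas1, Dctn6 had 7 and Cnot7 had 13, so no gene adjacent to Mfhas1 was tested. Gm16793, immediately before Mfhas1, gave 0.6 and 0.8 in medium and 2.2 and 2.5 with dexamethasone, inside the background throughout, as were Msr1 and Vps37a. With scaling to the hybridization controls, 3 of these 7 tested neighbours fell, as did 2498 of all 5582 genes.

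The known partners and relatives of each protein could be read in part. Of the FERRY components other than Ppp1r21, 4 were listed, and of the ROCO relatives of Mfhas1, 3 were listed. For 0 of these 7 did a probe set name the gene alone, so they were not analysed here. The protein phosphatase 1 list held 8 tested genes, catalytic and regulatory subunits, of which 0 passed and 1 had an unadjusted p under 0.05 in limma, beside 1111 of all 5582. Its median log2 difference was 0.12, against 0.00 over all genes. Ppp1r18 had the largest, with signals of 391.6 and 431.1 in medium and 492.4 and 502.6 with dexamethasone (0.28 ± 0.08 SE). The catalytic subunit gene Ppp1cc followed at 0.16 ± 0.08. Both were smaller than that of Ppp1r21, which was itself chosen for its difference on these arrays.

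Among 31 tested genes of Rab5 and the early endosome, 0 passed and 4 had an unadjusted p under 0.05 in limma. Over all 5582 genes, 3.91% passed and 1111 had such a p. The median log2 difference was -0.02, and 13 of the 31 were higher with dexamethasone. The list ran from -0.64 ± 0.29 for Rab5b to 0.23 for Vps35, a retromer subunit. Rab5b was near background, at 20.6 and 20.3 in medium and 10.2 and 15.9 with dexamethasone. The brighter Rab5a and Rab5c, for the same GTPase, had differences of -0.22 ± 0.09 and -0.30 ± 0.12. All 3 Rab5 genes were lower on both dexamethasone arrays than on either medium array, a separation that 25.7% of all genes showed in that direction. Over the whole list, 8 of the 31 were lower without overlap and 3 higher, where 24.7% of all genes were higher without overlap. Tsg101, of the endosomal sorting machinery, was also near background, at -0.55 ± 0.33.

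For Mfhas1, 13 cytoplasmic leucine-rich repeat proteins were tested and 0 passed, with 3 at an unadjusted p under 0.05. Over all 5582 genes, 1111 had such a p. The median log2 difference was 0.06. The largest were 0.33 ± 0.11 for Rsu1, a Ras suppressor, and -0.28 ± 0.07 for Lrch4. Of 23 genes of Toll-like receptor signalling, 1 rose and 0 fell, where 1.88% of all genes rose and 2.02% fell. The gene was Tnfaip3, whose product A20 restrains NF-kappaB, at 118.8 and 145.2 in medium and 248.7 and 289.9 with dexamethasone (1.03 ± 0.13 SE, limma adjusted p = 0.0113). This call was lost without medium replicate 1 (adjusted p = 0.0847), without dexamethasone replicate 1 (0.0636), without dexamethasone replicate 2 (0.0717) and without the variance trend (0.108). The list's median was 0.03. The receptors Tlr6 and Tlr7 and the adaptor Tirap were inside the background on every array.

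In the Ras, Raf, MEK and ERK list, 0 of 16 genes passed and 3 had an unadjusted p under 0.05, beside 1111 of all 5582. The median log2 difference was -0.05. Rasgrp1, which activates Ras in thymocytes, was at 67.6 and 66.8 in medium and 41.4 and 50.6 with dexamethasone (-0.54 ± 0.15 SE). Rasa3, a Ras GTPase-activating protein, was at 187.3 and 218.1 in medium and 144.5 and 137.0 with dexamethasone (-0.52 ± 0.10 SE, limma adjusted p = 0.0501). With pseudocounts of 16 and 32, with the filter at the 60th percentile and with a replicate block, 1 gene of the list fell. Of 16 protein phosphatase 2A genes, 0 passed and 2 had an unadjusted p under 0.05, with a median of 0.00. Strn4, a striatin subunit, was at 18.9 and 12.0 in medium, partly inside the background, and at 39.8 and 28.3 with dexamethasone (1.10 ± 0.29 SE). Ppp2r5d, a regulatory subunit, had a difference of -0.39 ± 0.09. With the replicate block 1 gene of this list rose and 1 leucine-rich repeat gene fell, and 1 of the latter also fell with every probe set tested.

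**Figure D4:**
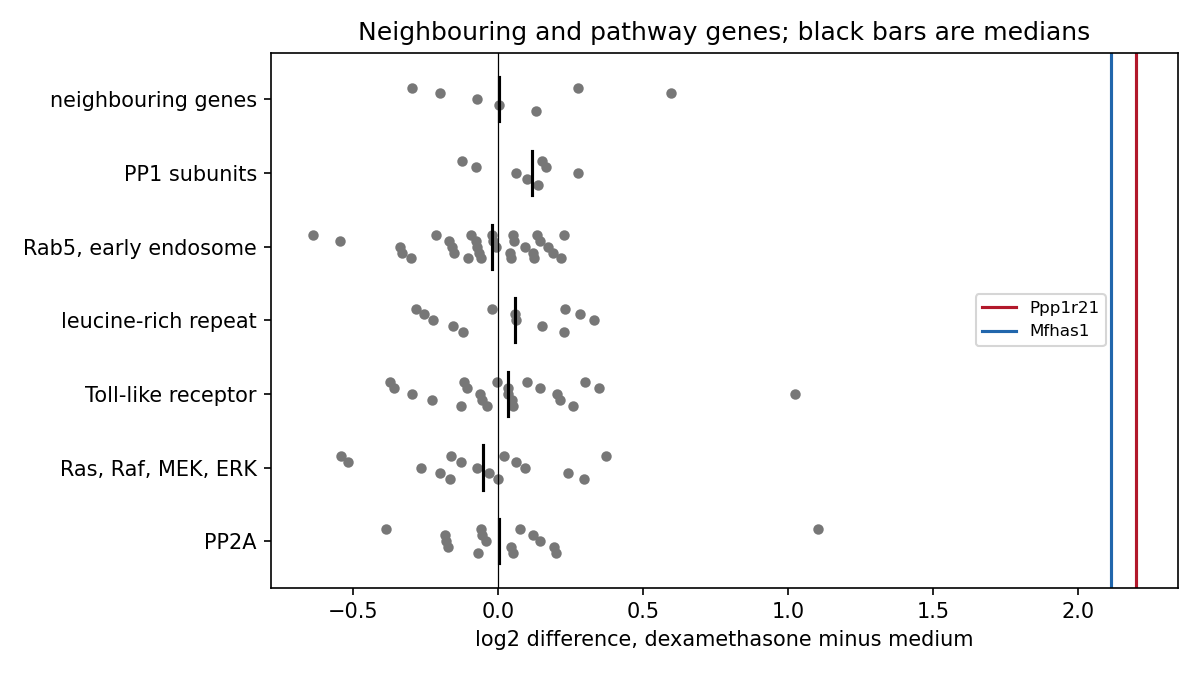
Log2 difference between dexamethasone and medium for the tested genes among those nearest to Ppp1r21 and Mfhas1 and for 6 gene lists linked to them. Points are genes, spread vertically for legibility, black bars are medians and coloured lines mark Ppp1r21 and Mfhas1. The list genes lie between -0.64 and 1.10, below the lines at 2.12 and 2.20 of the pair, which was chosen on this contrast.

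With scaling to the hybridization controls, which lowers every gene's difference alike, falls in these lists numbered 2 of 8 protein phosphatase 1 genes, 15 of 31 early endosome genes, 6 of 13 leucine-rich repeat genes, 9 of 23 Toll-like receptor genes, 9 of 16 Ras to ERK genes and 7 of 16 protein phosphatase 2A genes. Over all genes it was 2498 of 5582. The median log2 difference of all tested genes moved from 0.00 to -0.45 with it. Relative to that median, Ppp1r21 stayed at 2.20 and Mfhas1 at 2.12.

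Markers of other cells were read because Mfhas1 has been studied in macrophages and erythroid cells. Of 10 macrophage markers on the array, 4 were tested and 0 passed, also at an unadjusted p under 0.05. Over all 5582 genes, 1111 had such a p. The 10 summed to 134.4 and 149.1 on the medium arrays and to 146.9 and 128.1 on the dexamethasone arrays, so the groups overlapped. The defining genes Adgre1, Itgam and Mrc1 had mean signals of 3.05, 1.40 and 0.950 in medium and 2.75, 1.25 and 1.20 with dexamethasone. Other members went both ways. Of the 4 tested, 2 had a higher mean with dexamethasone, Cd68 and Csf1r. Without overlap of the arrays, 1 was higher (Cd68) and 1 lower (Ctss), where 24.7% of all genes were higher and 25.7% lower. Of those not tested, Fcgr1 gave 4.1 and 9.9 in medium and 10.4 and 14.7 with dexamethasone. Lyz2 gave 9.6 and 7.7 in medium and 6.4 and 2.5 with dexamethasone. Of 5 erythroid markers 2 were tested and 0 passed, also at an unadjusted p under 0.05. The 5 summed to 122.3 and 127.7 on the medium arrays and to 168.8 and 130.0 on the dexamethasone arrays, so these sums did not overlap. Hba-a1 made up most of each sum, with means of 97.1 in medium and 108 with dexamethasone. Klf1, Epor and Slc4a1 also had higher means with dexamethasone, and Alas2 a lower one. Epor and Slc4a1 read 19.2 and 11.2 on dexamethasone replicate 1, and 4.1 and 2.7 on replicate 2.

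The other marker lists moved with treatment in places. The 7 B cell markers summed to 1429.6 and 1407.3 in medium and to 1932.4 and 1911.3 with dexamethasone. Most of this was Ighm, the immunoglobulin mu chain, the 1 of 6 tested that rose, where 1.88% of all genes rose. Of the 6, 5 had a higher mean with dexamethasone, 4 of them without overlap of the arrays, and the list's median log2 difference was 0.39. Of all 5582 genes, 2797 were higher, 24.7% were higher without overlap, and the median was 0.00. The lineage factor Pax5 had means of 13.9 in medium and 20.9 with dexamethasone, Ms4a1 18.0 and 24.1, and Cd79b 87.4 and 94.1, none of which passed. Cd79a had means of 18.2 and 17.6. The 10 markers of thymic epithelium and stroma summed to 270.5 and 273.9 in medium and to 177.7 and 198.0 with dexamethasone. Cldn4 alone gave 202.9 and 210.2 of these in medium and 87.4 and 97.8 with dexamethasone, a larger fall than that of the sums. It was the 1 of 4 tested that fell, where 2.02% of all genes fell, and 0 rose. Col1a1, a stromal collagen gene, was at 16.5 and 18.4 in medium and at 33.5 and 38.2 with dexamethasone, a log2 difference of 0.997 that did not pass (limma adjusted p = 0.0502). The defining Foxn1, Krt5 and Krt8 were inside the background in both groups. Besides Cldn4, only Pecam1 of the 10 had a lower mean with dexamethasone, 19.55 against 20.8, and 6 of the 10 were inside the background on every array. Of 4 tested markers of mature single-positive thymocytes, Il7r rose, where 1.88% of all genes rose. Ccr7 and Klf2 had lower means with dexamethasone, 67.05 against 71.9 and 31.45 against 40.8, as did S1pr1, inside the background. The 5 on the array summed to 1048.7 and 1105.6 in medium and to 1251.8 and 1121.4 with dexamethasone. H2-K1 made up most of each sum, with means of 903 in medium and 939 with dexamethasone. Of 11 double-positive markers 2 fell, Ptcra and Cd8b1, where 2.02% of all genes fell. The sums overlapped at 14705.3 to 15031.3 in medium and 14243.4 to 15143.5 with dexamethasone. The part of these markers in the Ppp1r21 and Mfhas1 signals was not tested.

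The size of the Ppp1r21 difference depended on the scaling. Across quantile normalization, centring on array medians, pseudocounts of 16 and 32 and leaving out each array it stayed between 2.14 and 2.26. With scaling to the hybridization controls it was 1.75, and that of Mfhas1 was 1.66. For Mfhas1, leaving out medium replicate 1 gave 1.76 and leaving out medium replicate 2 gave 2.47, so its size rests on which medium array is read. A pseudocount of 32, close to its medium signal, gave 1.53.

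**Figure D5:**
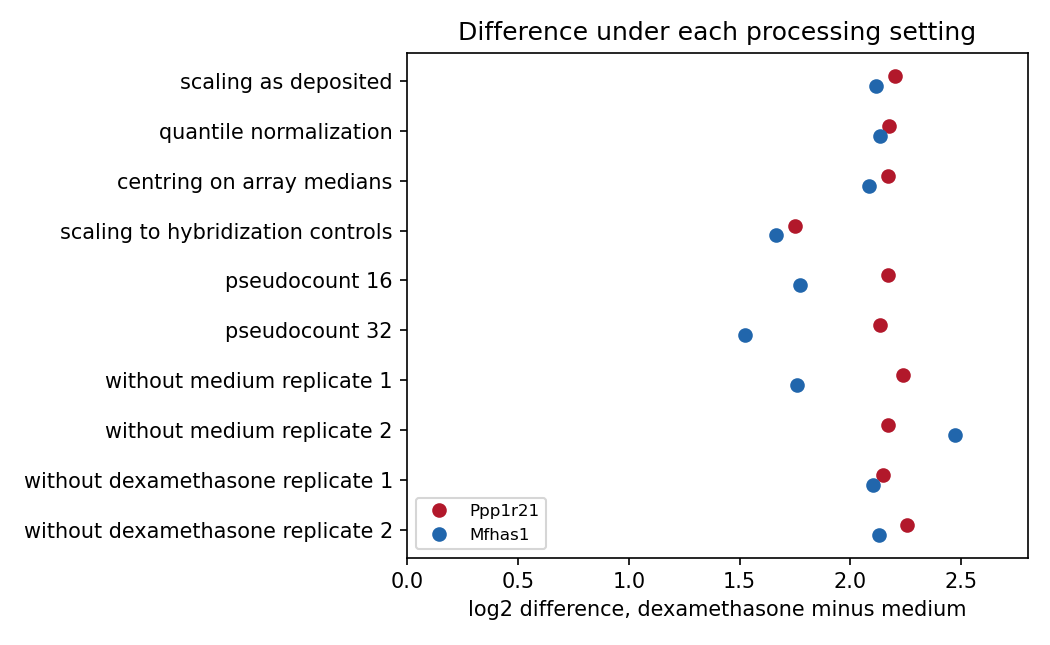
Log2 difference between dexamethasone and medium for Ppp1r21 and Mfhas1 under each of 10 processing settings; each point is 1 gene under 1 setting, with the deposited scaling on top. Ppp1r21 lies between 1.75 and 2.26 and Mfhas1 between 1.53 and 2.47, both above 0 in every setting shown.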

How the data were processed

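RNA from double-positive thymocytes was measured on 4 arrays, 2 per group. The authors deposited MAS5 intensity values on a linear scale, per the submitters' processing notes, with version and settings not given in the sources used here; no detection calls were used. MAS5 scales arrays to a common level, so a shift of all genes alike would be hidden. Signals were used as log2(signal + 1). The brightest probe set stood for each of 8251 genes, and the 5582 above the 40th percentile of mean log2 signal over all probe sets other than controls were tested. Dexamethasone was compared with medium with limma 3.58.1 (R 4.3.3; lmFit and eBayes with a trend), two-sided, Benjamini-Hochberg adjusted over all genes, threshold 0.05. The fit was tested on simulated data. These were independent normal values with variances modelled on these arrays and no shift of whole arrays, and the rates hold for such data only. The fit called 26.8% of genes set to change by 0.5 log2 units, 67.5% of those by 1 and 93.1% of those by 2. On average 5.49% of its calls were false. A gene that did not pass may therefore still have changed. A gene is said to have risen or fallen only if it passed.

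Ppp1r21 and Mfhas1 and all lists were chosen with earlier results of these data known, and the pair was left out of every list. Named were the pair, up to 3 measured genes on either side, the 5 nearest in profile and in medium level, the 3 largest passing members of each list or else the 2 largest differences, and Fkbp5, Cd4 and Cd8a. Other list members were named after their values were seen. Symbols came from the platform annotation; 10817 of 10833 single-gene probe sets matched the reference by gene ID. A RefSeq promoter sequence was matched for 1 of the 2 genes, Ppp1r21 and not Mfhas1. The number of arrays limits the precision. Alternatives were 3 other scalings, 2 pseudocounts, 2 filters, no variance trend, a replicate block, other ways to combine probe sets, and leaving out each array.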

Additional observations from a re-analysis of the deposited data

How the results depend on the processing

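The log2 difference of Ppp1r21, 2.20, became 1.75 under hybridization-control scaling and 2.14 under a pseudocount of 32. That of Mfhas1, 2.12, was 1.66 and 1.53. Leaving out each array in turn gave 2.15 to 2.26 for Ppp1r21 and 1.76 to 2.47 for Mfhas1. Both stayed positive under every setting run for them. The number of genes that changed, 218, became 2541 when scaled to the hybridization controls, 116 with no filter, 19 without the variance trend, 353 with a replicate block and 31 to 70 when an array was left out. The replicate numbers were not shown to pair the arrays: the correlation of deviations from the group means between same-numbered arrays was 0.07, and the block is given only for completeness. Under quantile normalization, median centring, the other pseudocounts, the stricter filter and the other ways to combine probe sets the count was 173 to 290. The cause of these shifts was not tested. Trgv1 lost its call without dexamethasone replicate 1 (1.54, limma adjusted p = 0.0636). With 1 probe set a gene and 2 arrays a group, a fault of either probe set could not be seen. The medium arrays of Mfhas1 lay 0.71 apart on the log2 scale, against a median of 0.17 over 891 genes of similar brightness.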
